A study of Mus musculus with 45 samples.

Results

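The broad REV-ERBα domains described here are intervals of mouse liver chromatin that were called as single binding regions of 8 kb or more and whose summit rose less than 30-fold over local background. They were chosen from the authors' pooled peak list at zeitgeber time 10 (ZT10, hours after lights on), and 647 of its 27929 intervals met both limits. Width and fold chose the members, so both are given as description and no test was made on them. The 647 domains made up 2.32% of the intervals and 10.9% of the base pairs that the list covers, a total of 7052 kb.

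The series holds 45 chromatin immunoprecipitation sequencing samples in 18 groups, and 8 samples in 2 groups stand behind the lists used here. Both groups are livers of mice homozygous for a 3HA tag on endogenous REV-ERBα (genotype REV-ERBa3HA/3HA), with no AAV injection, immunoprecipitated with anti-HA magnetic beads. The groups differ in the time of collection, with 4 samples at ZT10 and 4 at ZT22. Age and sex are not given in the sources used here, and whole liver was used, so the cell type behind each fragment was not resolved. Each list was called on the 4 samples together, so no value below has a replicate spread, no p-value was computed, and every width and fold is the authors' own value for that interval.

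REV-ERBα, the product of Nr1d1, is a nuclear receptor that represses transcription and is a part of the circadian clock. It binds the RORE, an AGGTCA half-site with an AT-rich 5′ flank, as a monomer, and it recruits the NCOR1 and HDAC3 corepressor complex. In liver it accumulates during the day and is scarce at the end of the night, and it is known for repressing Arntl and genes of lipid and glucose metabolism. It can also be held on chromatin by other liver transcription factors, away from its own motif.

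The starts of protein-coding genes that lie inside domains were examined first for such half-sites, in windows from 250 bases before to 50 bases after each start (RefSeq, GRCm38.p6, the assembly of mm10). Of the 430 start windows inside domains, 69 (16.0%) held AGGTCA on either strand, against 14.6% of all 21045 start windows and 13.1% of the 7813 inside any ZT10 peak. The longer TAGGTCA, which contains that half-site, occurred in 8 windows (1.86%, against 2.35% of all and 2.06% inside peaks). TAGGTCA preceded by AAN, the fuller monomer site, which contains both, occurred in 3 windows (0.698%, against 0.157% of all and 0.192% inside peaks), of which 2 belong to overlapping starts of Ivns1abp and 1 to Aifm2. A direct repeat of AGGTCA with NN between the copies occurred in none of the windows, inside domains or elsewhere. The E-box CACGTG, the site of the clock activators CLOCK and BMAL1, occurred in 46 windows (10.7%, against 7.91% of all and 11.5% inside peaks). CAAAGTCCA, a form of the HNF4α site, occurred in 5 windows (1.16%, against 0.456% of all and 0.563% inside peaks). These are matches of letters in short windows around starts; the bases under most summits lie elsewhere and were not analysed here.

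No more than 29 of these windows, of 26 genes, held the summit of a domain itself. AGGTCA occurred in 9 of the 29 (31.0%), those of Acmsd, Ggnbp2, Gjb2, Pbld1, Ppm1k, Rara, Sgms2 and both starts of Plin5, against 13.9% of the 2330 windows that hold any ZT10 summit. CAAAGTCCA occurred in 3 of the 29, at Hsd3b3 and at both starts of Tlcd4, against 0.815% of those 2330. The Tlcd4 windows overlap and may hold the same site. The 250 bases before 5 starts are printed below in the direction of the gene, because they show the half-site in the window of a domain's summit in 3 genes and the half-site at a start far from the summit in the other two. Capitals mark AGGTCA or TAGGTCA on either strand (TGACCT or TGACCTA when read on the other one). Gjb2 encodes the gap junction protein connexin 26, Pbld1 a protein of the phenazine biosynthesis-like family and Plin5 a lipid droplet coat protein. G6pc encodes the catalytic subunit of glucose-6-phosphatase, which releases free glucose from the liver, and Fabp1 the liver fatty acid-binding protein.
Gjb2 (chr14:57104703-57104952, minus strand): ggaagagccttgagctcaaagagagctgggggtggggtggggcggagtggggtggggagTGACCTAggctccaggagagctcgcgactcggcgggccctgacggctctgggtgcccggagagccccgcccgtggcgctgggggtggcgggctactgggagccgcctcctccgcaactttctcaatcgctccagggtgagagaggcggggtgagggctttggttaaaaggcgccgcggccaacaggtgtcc
Pbld1 (chr10:63060463-63060712, plus strand): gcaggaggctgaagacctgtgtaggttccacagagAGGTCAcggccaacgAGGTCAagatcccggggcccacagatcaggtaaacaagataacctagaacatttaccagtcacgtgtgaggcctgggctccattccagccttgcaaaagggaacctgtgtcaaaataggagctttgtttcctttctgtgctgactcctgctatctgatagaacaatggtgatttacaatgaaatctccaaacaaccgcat
Plin5 (chr17:56117549-56117798, minus strand): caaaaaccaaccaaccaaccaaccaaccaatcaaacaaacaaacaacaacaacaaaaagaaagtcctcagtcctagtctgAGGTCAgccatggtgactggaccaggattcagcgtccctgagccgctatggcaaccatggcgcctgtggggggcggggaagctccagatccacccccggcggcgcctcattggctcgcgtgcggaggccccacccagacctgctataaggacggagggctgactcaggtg
G6pc (chr11:101367466-101367715, plus strand): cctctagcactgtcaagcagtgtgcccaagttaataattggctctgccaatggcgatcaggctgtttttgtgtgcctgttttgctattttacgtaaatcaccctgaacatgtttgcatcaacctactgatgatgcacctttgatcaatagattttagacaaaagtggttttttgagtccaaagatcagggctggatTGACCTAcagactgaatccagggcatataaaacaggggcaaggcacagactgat
Fabp1 (chr6:71199629-71199878, plus strand): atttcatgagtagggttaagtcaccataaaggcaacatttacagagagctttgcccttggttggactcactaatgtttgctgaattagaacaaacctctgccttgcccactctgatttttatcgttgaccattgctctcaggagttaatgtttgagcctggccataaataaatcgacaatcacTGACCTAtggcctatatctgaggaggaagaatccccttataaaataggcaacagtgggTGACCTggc

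In Gjb2, the only one of the 29 windows with TAGGTCA, the motif began 191 bases before the start and the summit lay 57 bases before it. Pbld1 held a pair of AGGTCA half-sites that began 215 and 200 bases before the start, and its domain's summit lay 38 bases before the start. In Plin5 the half-site began 170 bases before the start and the summit lay 33 bases after it. In G6pc the motif began 54 bases before the start, while the summit lay 5077 bases upstream. In Fabp1 motifs began 67 and 9 bases before the start, and the summit lay 9419 bases upstream. Half-sites at starts were thus found both close to a domain's summit and kilobases from it.

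The domains ranged from 8000 to 28442 bp in width, with a median of 9932 bp, against a median of 1679 bp over all ZT10 peaks. At least 10000 bp were reached by 319 domains, at least 15000 bp by 58 and at least 20000 bp by 12. The fold at the summit ranged from 6.76 to 29.9, with a median of 16.7, against 6.81 over all peaks. The fragments over each summit were recovered by solving for the pileup that gives both deposited values, fold and −log10 p. Their number had a median of 369 and a range of 157 to 728. Over all peaks that median was 149. The share of intervals that were domains was higher in each bin of higher fold, from 0.124% of the 5663 peaks between 6-fold and 8-fold to 21% of the 315 peaks between 25-fold and 30-fold. None of the 11277 peaks under 6-fold was a domain.

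**Figure D1:**
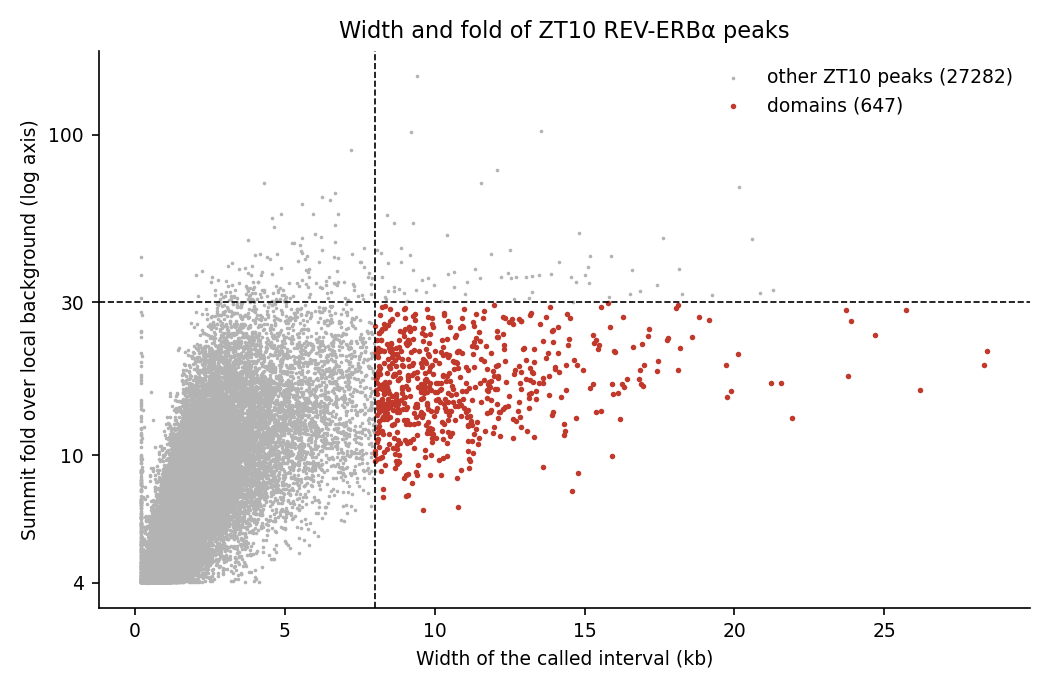
Width of each called interval (x axis, kb) against the fold of its summit over local background (y axis, log scale) for the 27929 ZT10 peaks. The 647 domains (red) lie right of the 8 kb line and below the 30-fold line, and 74 intervals lie right of the first line and above the second.

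The rule sets its limits inside a continuous spread. The narrowest domains touched Ptbp3 (8000 bp), Id1 (8013 bp), Tpst2 (8024 bp) and Tuba1c (8031 bp) or lay near Selenbp2 (8006 bp). Just below the width limit lay intervals on Fads6 (7997 bp), Serpinf2 with Wdr81 (7996 bp), Slc22a23 (7991 bp) and Cyp2c29 (7983 bp). Just under the fold limit were domains nearest to Ppp1r3b (29.9), on Fam25c (29.4), on G6pc (29.4), on Atf5 with Il4i1b and Nup62 (29.2) and near Mpc1 (29.1). Just over it were wide intervals near Hectd2 (30.1) and on Kcnq1 (30.3), Ski (30.4), Eif1a (30.8) and Irs2 (30.8).

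The widest domain, chr4:149988220-150016661, covered 28442 bp at H6pd, the endoplasmic reticulum enzyme that supplies NADPH for glucocorticoid activation. Its fold was 21.1, and the summit sat at 4.56% of the interval from its left edge. The second, chr7:19674585-19702922, spanned 28338 bp and held Apoe, Apoc1 and Apoc4 whole, with parts of Apoc2, Gm44805 and Tomm40. Its summit, at 19.2-fold, lay at 93.0% of the interval and at -1754 bp from the nearest Apoe start (negative values are upstream). These genes encode lipoprotein components, apart from Tomm40, a mitochondrial import channel, and Gm44805. The third covered 26177 bp around Ahsg, which encodes the plasma protein fetuin-A, with a fold of 16.0 and the summit 53 bp before the Ahsg start. Slc39a14, a metal ion importer, carried a domain of 25721 bp at 28.4-fold. Scarb1, the HDL receptor, carried one of 24696 bp at 23.7-fold. The remaining 5 of the 10 widest lay on Pim3 with Gm33049 (23906 bp), Rbm47 (23777 bp), Mat1a (23725 bp), Sh3pxd2a (21920 bp) and Gstp3 (21545 bp). Mat1a makes S-adenosylmethionine in hepatocytes, and Rbm47 is an RNA-binding partner of the editing enzyme that acts on Apob mRNA.

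The domains of highest fold were in part intergenic. The highest, at 29.9-fold and 15795 bp wide, touched no protein-coding gene, and the nearest was Ppp1r3b, a glycogen-targeting subunit of protein phosphatase 1, at 157354 bp from the summit. A separate domain of 8322 bp at 10.2-fold lay inside Ppp1r3b itself. The domain on G6pc reached 29.4-fold over 11994 bp, and another, of 9108 bp and 22.9-fold, had its summit 11675 bp before the G6pc start. The domain near Mpc1, a subunit of the mitochondrial pyruvate carrier, had its summit 10623 bp before the start. Igfbp1, a hepatic binding protein for insulin-like growth factors, had a domain of 13842 bp at 29.0-fold, with the summit 2833 bp upstream. Prkce (29.1-fold), Rnf144b (28.9), Gse1 (28.8) and Qsox1 (28.7) had the summit inside the gene. Agt, the angiotensinogen gene, had it 2336 bp upstream at 28.7-fold.

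At the low end, a domain in Nfia had a fold of 6.76 and one in Igf1 had a fold of 6.88, followed by Atp5b with Baz2a (7.41), Ell (7.44) and Cyp2a5 (7.5). The fold divides by a local background. More than 2 times the lowest background was found at 2 domains (0.309%), against 0.269% of all ZT10 peaks, and they were those in Nfia (10.6 scaled fragments) and Igf1 (9.0), against a lowest value of 4.14. Their summits held 328 and 287 fragments, whereas the Atp5b and Baz2a domain, at the lowest background, held 157, the fewest of all domains. The order of domains by fold therefore differed from their order by fragments.

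Summits of broad domains were spread along the interval. In 234 domains (36.2%) the summit lay between 33.3% and 66.7% of the width, against 65.4% of all ZT10 peaks. In 31 domains (4.79%) it lay in the first or last 10% of the width, against 0.892% of all. The lower and upper quartiles of its place were 25.4% and 71.6% of the width, and 326 domains had it left of the centre. The most eccentric summits were those of H6pd (4.56%), Iffo2 (95.0%), a domain nearest to Ptpn1 (5.72%), Cebpa (6.07%) and Cdc42ep1 (6.15%). The 13288 other peaks within the domains' fold range had 69.6% of their summits in that central stretch. The 74 wide intervals of 30-fold or more had 39.2% there.

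**Figure D2:**
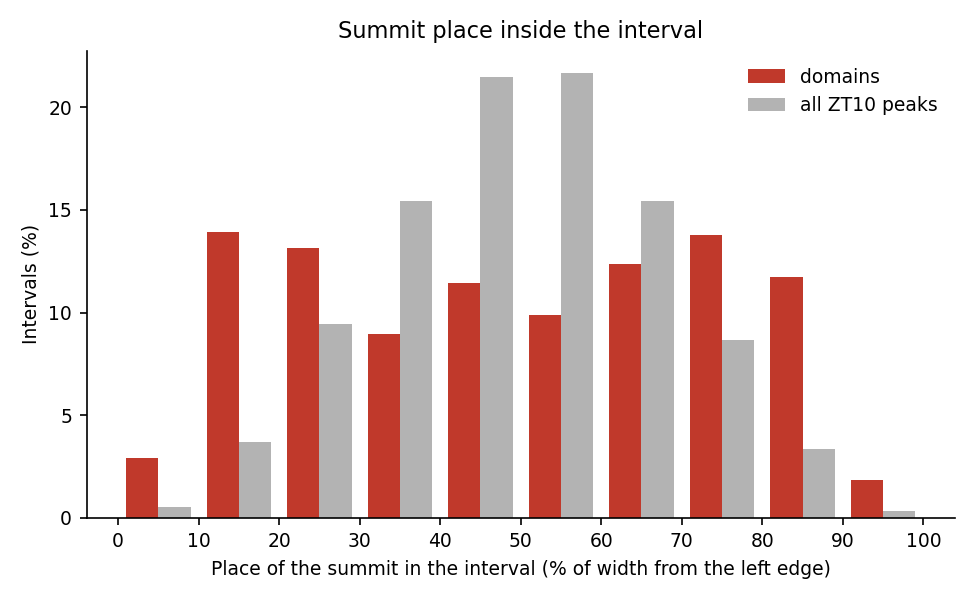
Place of the summit inside the interval (x axis, % of the width from the left edge, bins of 10%) as a share of intervals (y axis, %) for domains (red) and all ZT10 peaks (grey). Domain summits are spread from the bin at 10% to the bin at 80%, with 2.94% and 1.85% in the outermost bins, whereas all peaks have their highest shares of 21.5% and 21.7% in the 2 central bins.

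Most domains lay on genes. Of the 647, 564 (87.2%) touched a protein-coding gene, against 68.0% of all ZT10 peaks, and the summit itself was inside such a gene in 404 (62.4%), against 59.4%. A single gene was touched by 481 domains, 69 touched 2 genes, 14 touched 3 or more and 83 touched none. At least 2 genes were thus touched by 12.8%, against 5.52% of all peaks. In 209 domains (32.3%) the whole interval lay within gene spans, against 45.0%. A wider interval can reach more genes, and the part of width in these shares was not tested. Of the 74 wide intervals of 30-fold or more, 70.3% touched a gene, 1.35% touched at least 2 and 47.3% had the summit inside one. The domains that touched most genes were the Apoe cluster, 5 genes of the Ugt1a glucuronosyltransferase locus, Lrg1 with Plin4, Plin5 and Sema6b, Dbp with Car11, Rpl18 and Sphk2, and Stk16 with Tuba4a, Glb1l and A630095N17Rik. The Ugt1a genes share their 3′ exons, so they count as several genes in 1 locus. Near-identical copies such as Gstm1 and Gstm3, Serpina1a, Mug1, Cyp2a5 and Acaa1b may share reads, and the assignment of their domains is uncertain.

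Gene starts were often inside the domains while the summits lay away from them. Among the 631 domains on chromosomes with annotated starts, 309 (49.0%) held the start of a protein-coding gene, against 22.2% of all peaks. The summit lay within 1 kb of a start in 83 (13.2%), against 20.7% of all peaks, and within 5 kb in 234 (37.1%), against 28.9%. Of the 70 wide intervals of 30-fold or more on those chromosomes, 42.9% held a start and 14.3% had the summit within 1 kb of one, both nearer to the domains' shares than to those of all peaks. In 226 domains a start was inside the interval and the summit was more than 1 kb from any start. The 229 domains with exactly 1 annotated start inside allowed the direction to be read. Starts were annotated for 79.9% of protein-coding genes, so other starts may be missed. Some annotated starts are internal, and bases upstream of them can lie in the gene. The Gpam domain of 11545 bp lay wholly in the gene, with 7254 bp upstream of its start. Their median extent was 3613 bp upstream and 6696 bp downstream of the start, and 150 of them (65.5%) had more of the interval downstream. The summit's median place was 208 bp downstream of the start, and 121 of the 229 summits (52.8%) were downstream. Among these 229, more intervals had most of their length downstream than had the summit downstream. The same shares were not computed over all ZT10 peaks, so they are not shown to be particular to domains.

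Single genes show how far these shapes differ. The Ahsg domain reached 15608 bp upstream and 10568 bp downstream of its start, with the summit next to the start. The Nfic domain reached 1205 bp upstream and 20001 bp downstream, with the summit 14935 bp into the gene. Nfic is a member of the nuclear factor I family. At Nr1i2, which encodes the xenobiotic receptor PXR, 90.4% of the interval was downstream and the summit lay 6997 bp into the gene. At Igfbp1, 20.7% was downstream. At Cebpa, the gene of the hepatocyte factor C/EBPα, 12837 bp of the interval lay downstream of the start, with the summit 2375 bp upstream, in an interval 16196 bp wide around a gene of 2636 bp. Itih2, which encodes a plasma hyaluronan-binding protein, was nearly centred, with the summit 21 bp from the start and 53.3% of the interval downstream.

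**Figure D3:**
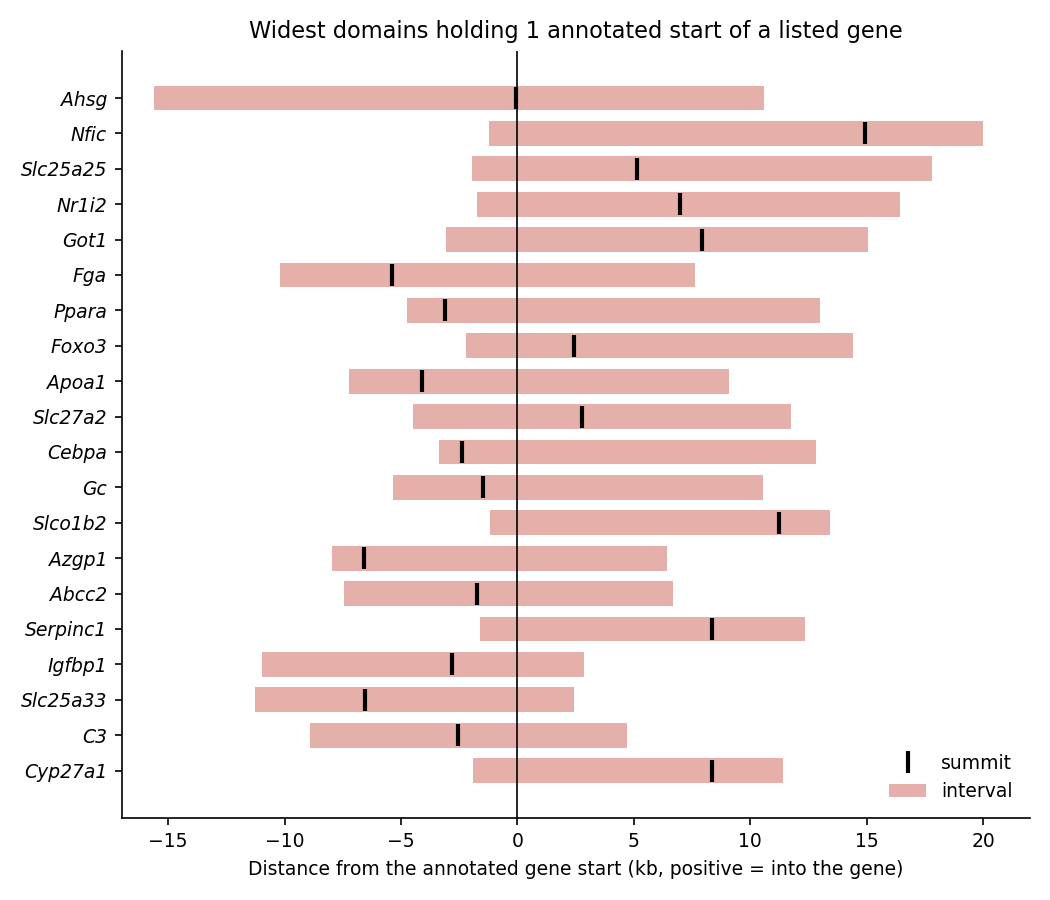
The 20 widest domains that hold exactly 1 annotated start and belong to a gene of the lists, aligned at that start (x axis, kb, positive values run into the gene). Bars are the called intervals and ticks the summits. The Nfic bar extends 20001 bp into the gene and the Ahsg bar 15608 bp upstream, and summits lie on both sides of the start.

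In total 612 protein-coding genes (2.83% of 21631) were touched by a domain, against 10045 (46.4%) touched by any ZT10 peak. Of the genes with any peak, 6.09% had a domain. For the gene lists below, shares of all matched members have 2.83% as their base. Shares of the members with any peak have 6.09% as their base. Genes touched by a domain had a median length of 29361 bp, against 26067 bp for genes with any peak and 17329 bp for all. Of the 658 genes matched on 25 lists of liver functions and cell types, 147 were touched, by 160 domains. The lists were chosen with earlier results of these data known, so their shares and their order are description only. In each of the 19 lists of liver functions at least 85.0% of the matched members had some ZT10 peak, while in the 6 lists of cell type markers that share was between 0% and 57.1%.

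Transcription factors of hepatocytes had the highest share of the 25 lists. A domain touched 20 of 46 (43.5%), which is 45.5% of the list's members that had any peak, against 6.09% over all genes. Their median gene length over the list was 67406.5 bp. The touched genes included Hnf4a, Foxa1, Onecut1, Onecut2, Cebpa, Cebpb, Prox1, Pparg, Zbtb20 and Nfix, which encode factors that set or hold hepatocyte identity or lipid programmes. The widest was that of Nfic at 21207 bp and 16.8-fold, followed by Nr1i2 at 18195 bp and 21.6-fold. Ppara, the fatty acid-sensing receptor that drives oxidation genes, was touched by 2 domains, of 17735 bp (22.9-fold) and 13937 bp (24.7-fold). Stat5b, which carries growth hormone signals to the nucleus, had 2 domains, of 16999 bp (19.1-fold) and 11282 bp (20.7-fold). Foxo3 had 2 as well, of 16621 bp (21.8-fold) and 9645 bp (19.7-fold). Atf5 had the highest fold of the list at 29.2, and Nfix (8.65) and the second Nfia domain (6.76) had the lowest.

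Of the core clock, 4 of 19 genes (21.1%) were touched, against 2.83% of all protein-coding genes. Arntl, which encodes the activator BMAL1, had its domain of 8115 bp inside the gene, 53364 bp from the annotated start, at 21.6-fold. Cry1, a repressor of the CLOCK and BMAL1 pair, had a domain of 8749 bp at 27.7-fold with the summit 5134 bp upstream of the start. Per2, its partner in repression, had one of 12067 bp at 14.4-fold inside the gene. Rora, the activating receptor that competes for the RORE, had 2 domains, of 10551 bp (13.7-fold) and 9071 bp (22.1-fold), both inside a gene of 734843 bp. Among the clock output factors 4 of 10 were touched. Dbp, a proline and acidic amino acid-rich activator, lay whole inside a domain of 11885 bp at 20.9-fold with the summit 121 bp before its start. Its relative Hlf had one of 11842 bp at 16.4-fold with the summit 436 bp after the start. Por, the electron donor of cytochrome P450 enzymes, and Klf15, a factor of amino acid and glucose metabolism, had 2 domains each. Of the corepressor genes 2 of 11 (18.2%, against the same 2.83%) were touched, among them Sin3a by 1 domain (9.79-fold).

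Lipid genes were among the lists with the most members touched. Of the list of lipid droplets and lipoproteins, a domain touched 13 of 34 (38.2%), among them Apoa1 with Apoc3 in 1 interval (16320 bp, 16.4-fold) and Apoa2 (11060 bp, 15.9-fold). Several genes of that list share an interval, so the 13 are not 13 separate domains. Angptl4 and Angptl8, secreted inhibitors of lipoprotein lipase, had domains of 13058 bp (17.3-fold) and 11378 bp (23.2-fold). The uptake receptor Lrp1 (13193 bp, 18.8-fold) was touched as well. By symbol, 7 of the 14 apolipoprotein genes were touched, in 3 domains. Of fatty acid and triglyceride synthesis, 10 of 33 (30.3%) were touched. Gpam, which makes the first committed step of glycerolipid synthesis, had 3 domains of 11545, 11220 and 9396 bp. Slc27a2, a fatty acid transporter and acyl-CoA synthetase, had one of 16236 bp at 16.7-fold, and Acsl1, an acyl-CoA synthetase, one of 12800 bp at 19.0-fold. Agpat2, which makes phosphatidic acid, reached 26.9-fold, and the elongase Elovl6 21.7-fold.

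Fatty acid oxidation and ketogenesis had 13 of 35 genes touched (37.1%). Ehhadh, a peroxisomal bifunctional enzyme, had a domain of 13205 bp at 27.9-fold with the summit 5841 bp into the gene. Acaa2, a mitochondrial thiolase, had one of 12597 bp at 11.3-fold. Cpt1a, which gates entry of fatty acids into mitochondria, had a domain of 9704 bp at 21.5-fold. Hadha and Hadhb, which encode the subunits of the trifunctional protein from a shared promoter region, were touched by 1 domain of 9552 bp at 16.7-fold. Of cholesterol synthesis 2 of 24 genes were touched (8.33%, against 2.83% of all genes), which is 8.70% of those with any peak, against 6.09%. They were Insig2, a sterol-regulated retention factor (11631 bp, 28.2-fold), and Fdft1, squalene synthase (10886 bp, 13.3-fold). Of the list of bile acid synthesis and transport 7 of 25 (28.0%) were touched, most of them transporters. Slco1b2 had the widest (14583 bp) and one of the lowest folds (7.74), over a local background of 8.0 scaled fragments. Abcc2, the canalicular pump of conjugates, had 2 domains, of 14118 bp (20.9-fold) and 8058 bp. Cyp27a1, sterol 27-hydroxylase, had one of 13299 bp at 19.6-fold.

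Of glucose and glycogen metabolism 7 of 30 genes (23.3%) were touched, against 2.83% of all protein-coding genes. Of the members of that list with any peak, 25.9% were touched, against 6.09%. Fbp1, the gluconeogenic fructose bisphosphatase, had a domain of 13138 bp at 15.1-fold with the summit 428 bp before the start. Pygl, liver glycogen phosphorylase, had one of 12875 bp at 18.2-fold with the summit 6284 bp upstream. Khk, the kinase of fructose, had a narrower one (8155 bp, 10.6-fold). In insulin, glucagon and growth hormone signalling 9 of 33 (27.3%) were touched, among them Socs3, a feedback inhibitor of cytokine receptors (13033 bp, 19.9-fold), Pik3r1 (11242 bp, 14.8-fold), and Ghr, the growth hormone receptor (9369 bp, 13.1-fold).

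Plasma proteins had 22 of 86 genes touched (25.6%), against 2.83% of all protein-coding genes, the base for each list share in this paragraph. Fga and Fgb, which encode fibrinogen chains, had separate domains of 17793 bp (23.3-fold) and 10000 bp (19.9-fold). Cp, the copper oxidase ceruloplasmin, had one of 14515 bp at 26.8-fold, and Gc, the vitamin D carrier, one of 15910 bp at 16.7-fold. Serpinc1, antithrombin, had one of 13943 bp at 22.6-fold, and C3, the central complement component, one of 13611 bp at 22.8-fold. Amino acid and urea cycle genes had 12 of 48 touched (25%). Besides Mat1a they included Got1 (18107 bp, 18.4-fold), Gldc (16855 bp, 18.5-fold) and Sardh (14212 bp, 15.2-fold), enzymes of aspartate, glycine and sarcosine metabolism. Xenobiotic metabolism had 13 of 51 (25.5%), with Cyp2e1 (12934 bp, 21.5-fold), Mgst1 (9155 bp, 25.1-fold) and Cyp1a2 (8616 bp, 10.5-fold). Of the hepatic solute carriers 11 of 38 (28.9%) were touched, the second widest after Slc39a14 being that of Slc25a25 (19761 bp, 15.2-fold), a mitochondrial ATP-Mg carrier.

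Of the other function lists, 4 had 1 to 4 genes under a domain, and most of their members had a peak. Autophagy and stress had 1 of 29 genes touched, Gabarapl1 (3.45%, against 2.83% of all protein-coding genes), and 96.6% of the list had some ZT10 peak. Of its members with any peak, 3.57% had a domain, which is below the 6.09% over all genes. Iron and heme had 2 of 22 (9.09%), Trf and Cp, and NAD and vitamin metabolism had 3 of 22 (13.6%), Nadk, Aldh1a1 and Cyp27a1. Zonation and WNT had 4 of 20 (20%), Rnf43, Tbx3, Cyp2e1 and Cyp1a2. By gene symbol, 2 of 80 cytosolic ribosomal protein genes (2.5%) were touched, Rpl18 in the Dbp domain and Rpl3l, against 2.83% of all protein-coding genes. A peak lay on 86.3% of the 80, and 2.90% of those with a peak had a domain, against 6.09% over all genes. None of 49 complex I subunit genes and none of 78 mitochondrial ribosomal protein genes was touched, against the same 2.83%. A peak lay on 81.6% and 74.4% of them, and no test was made on these small counts. Markers of other cell types gave small counts, beside 2.83% over all protein-coding genes. None of 14 Kupffer cell, 13 stellate cell, 12 lymphocyte and 19 neuronal genes was touched. Of 14 endothelial markers 1 (7.14%) was touched, Gpr182, in an interval shared with Rdh1 and Zbtb39. Of 10 cholangiocyte markers 1 (10%) was touched.

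**Figure D4:**
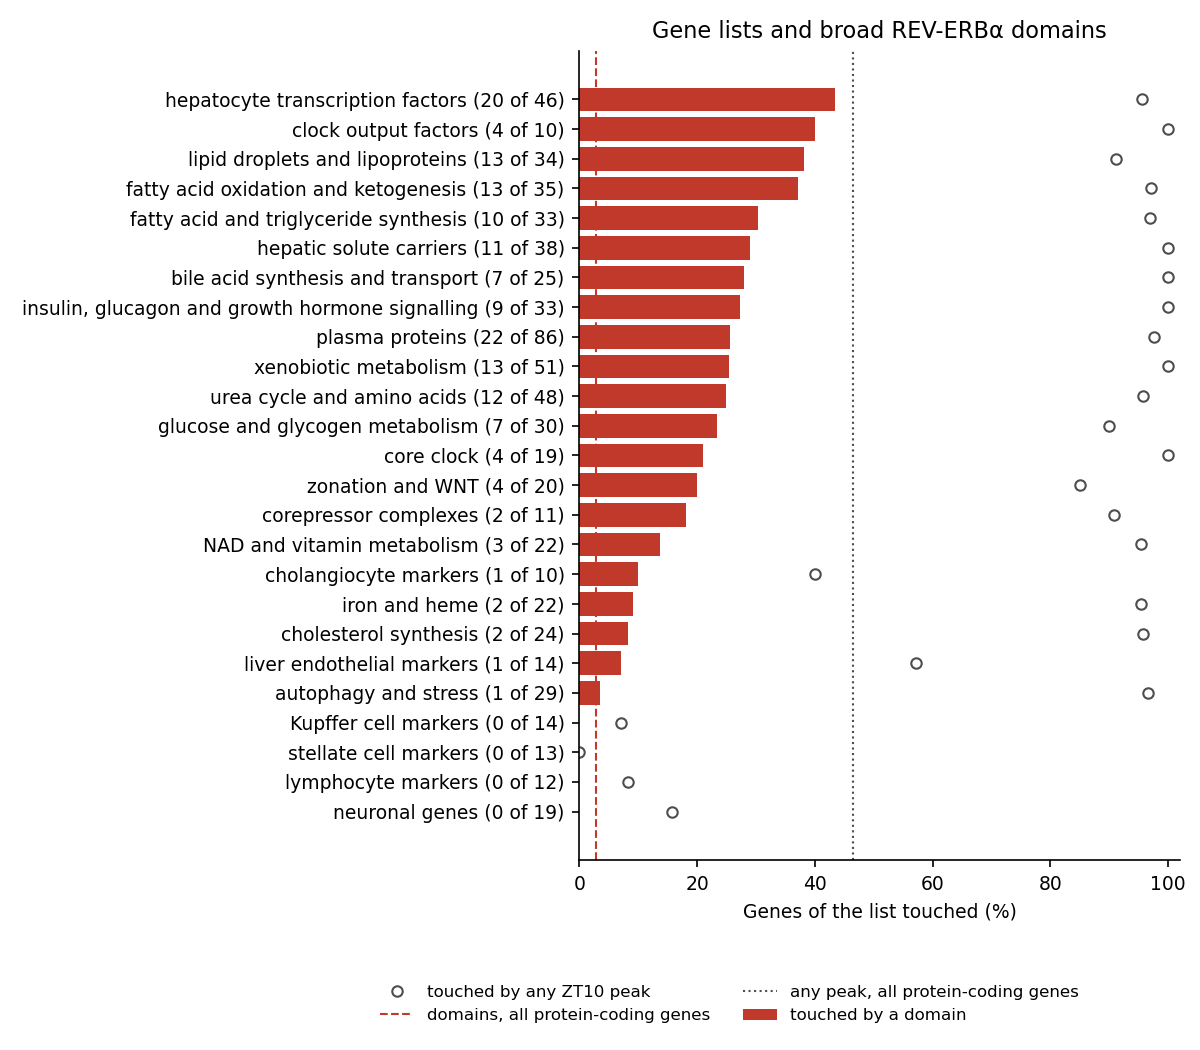
Share of each list's genes (x axis, %) touched by a domain (red bars, with counts in the labels) and by any ZT10 peak (open circles). The dashed and dotted lines are the shares over all protein-coding genes, 2.83% and 46.4%. The red bars run from 0% to 43.5%, while the circles of the liver function lists all lie at 85.0% or above.

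Some genes carried several domains. A total of 50 genes were touched by 2 or more, of which Zmiz1 had 4 and Gpam, Nfib, Rbm47, Shb and Zbtb16 had 3 each. The 4 in Zmiz1, a coactivator gene of 208869 bp, were 19720, 12879, 9536 and 8595 bp wide, with folds of 16.1 to 19.2. They lay within 72452 bp of each other, and the domains filled 50730 bp of that stretch. The 3 in Gpam filled 32161 bp of a stretch of 33183 bp, with folds from 11.6 to 14.7. At Rbm47 the 3 covered 42993 bp, all inside the gene. Zbtb16, which encodes the zinc finger repressor PLZF, had 3 with folds from 11.9 to 19.4, and Nfib 3 from 14.6 to 19.9. Pairs were found in metabolic genes such as Adipor2, Abca1, Cat, Dgat2, Lpcat3 and Scp2, and in receptor genes such as Rara and Nr5a2. At Ppara, one more domain with its summit 14138 bp before the gene made a group of 3 over 64108 bp, and a separate one had its summit 59090 bp before the gene. With a gap of at most 20 kb between neighbours, 122 domains stood in 58 such groups, 5 of which had 3 or more domains. Neither genes with several intervals nor such groups were counted over all ZT10 peaks. Within 50 kb of the summit, domains had a median of 5 other ZT10 peaks, against 3 over all peaks. For the 74 wide intervals of 30-fold or more that median was also 5. The distance from a domain to the nearest other domain on its chromosome was 96 bp at the least, with a median of 417179 bp over the domains.

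**Figure D5:**
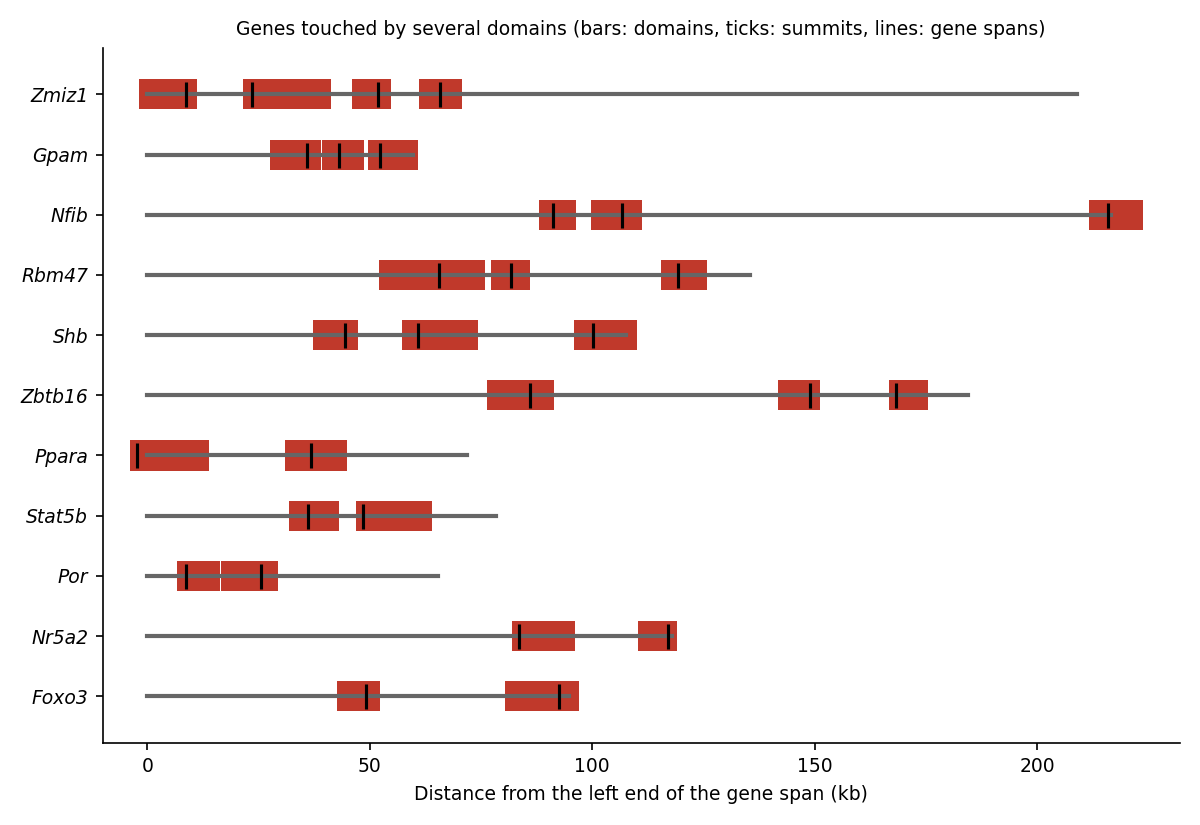
Domains (red bars) and their summits (ticks) on the spans of 11 genes (grey lines), as distance from the left end of each gene span (x axis, kb). Zmiz1 has 4 domains, the next 5 genes have 3 each and the lower 5 genes have 2 each. The domains of Gpam stand almost edge to edge.

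Some short genes lay whole inside a domain. A complete protein-coding gene lay inside 56 domains (8.66%), against 0.713% of all ZT10 peaks, 63 genes in all with a median length of 3716 bp. Of the 74 wide intervals of 30-fold or more, 5.41% held a complete gene. A wider interval can hold a whole gene more easily, and the part of width was not tested. The genes included 3 of the 4 Id genes, which encode inhibitors of helix-loop-helix factors, at Id1 (8013 bp, 10.1-fold), Id2 (10291 bp, 20.6-fold) and Id3 (11507 bp, 16.9-fold). Immediate early and feedback genes were present as Egr1 (9995 bp, 15.8-fold), Junb (8738 bp, 10.4-fold), Dusp6 (12356 bp, 26.7-fold) and Hes1 (9574 bp). All 3 mRNA-decay factors of the Zfp36 group among the touched genes, Zfp36 (13374 bp), Zfp36l1 (17152 bp) and Zfp36l2 (9140 bp), lay whole inside a domain. The transcription factor genes Cebpa and Cebpb, both short, were also covered end to end. These sets were chosen after their values were seen.

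MicroRNA hairpins lay under 12 domains, 13 hairpins of 1005 (1.29%). Any ZT10 peak lay over 111 hairpins (11%), and the domains are part of those peaks, so their share could not be higher. The domains made up 10.9% of the base pairs under ZT10 peaks. The domain over Mir22, a hairpin abundant in liver, was 12634 bp wide at 17.9-fold, with the summit at -905 bp from the hairpin's middle and 5166 bp from Tlcd2. The domain over Mir193a was 15539 bp wide at 13.8-fold and touched no protein-coding gene, with Rab11fip4 the nearest at 21254 bp. Its summit lay 7269 bp from the hairpin's middle, farther than at Mir22. Their mature sequences (RefSeq) are shown with the seed, bases 2 to 8, in capitals, because the summits of these 2 domains lay more than 5 kb from any protein-coding gene. The 4 seeds differ.
miR-22-5p: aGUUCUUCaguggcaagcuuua
miR-22-3p: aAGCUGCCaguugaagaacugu
miR-193a-5p: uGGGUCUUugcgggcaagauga
miR-193a-3p: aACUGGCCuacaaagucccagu

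The domains away from genes were few. In 30 (4.64%) the summit lay more than 50 kb from any protein-coding gene, against 10.7% of all ZT10 peaks. Of the 30 summits, 13 lay inside a noncoding or pseudogene span, a count that was not made for all ZT10 peaks. The farthest, 277195 bp from Fzd8, was 10803 bp wide at 14.8-fold. Of the others, 6 are given here, picked after their nearest genes were seen. One lay 272552 bp from Foxo1, the insulin-regulated activator of gluconeogenesis genes, at 22.9-fold. One lay 76173 bp from Glul, glutamine synthetase, at 25.2-fold, and others 74843 bp from Cebpb (15.2-fold) and 75536 bp from Prox1 (24.8-fold). A pair near Ptpn1, an insulin receptor phosphatase, had summits 107308 and 77082 bp from the gene. Nearest does not mean regulated, and no contact data were used.

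At ZT22, the time at which the protein is scarce, the authors' list holds 36 peaks. None of the 647 domains was overlapped by one (0 of 647, which allows a share of up to 0.464%), against 24 of 27929 ZT10 peaks (0.0859%). Of the 74 equally wide intervals of 30-fold or more, 8 were overlapped, and of all 27686 peaks under 30-fold, 7 (0.0253%) were. The fold limit in the rule thus leaves out the wide intervals that had a ZT22 peak. A ZT22 peak lay 3822 bp from the H6pd domain, and no other domain had one within 50 kb. The lists were called separately, with depth not given in the sources used here, so an interval that was not called at ZT22 may still hold signal.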

How the data were processed

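REV-ERBα ChIP-seq peaks of mouse liver were taken from the lists the authors deposited for ZT10 and ZT22, each called on 4 pooled samples, in mm10. MACS2 2.1.2, deepTools 3.3.0, BWA 0.7.17, cutadapt 2.3, SAMtools 1.9, Picard 2.18.12 and bcl2fastq 2.17 were used, per the submitters' processing notes. Nuclei were fixed with formaldehyde and EGS, sonicated and made into libraries by Tn5, per the labels' protocols. The control library and the depth are not given in the sources used here. In the deposited peak lists the fold is a ratio of summit to local background, p and q are −log10 values, and a score and the summit offset complete each row. Domains are intervals of at least 8000 bp with fold under 30. Fragments and local background were solved from the fold, with its pseudocount of 1, and the −log10 p; 99.8% of ZT10 peaks were solved, and the method was tested on simulated data. Genes, start windows and miRNAs are from RefSeq (GRCm38.p6); starts exist for 79.9% of protein-coding genes and for none on chromosome 18, and 658 of 661 list symbols matched. A gene was touched at 1 bp of overlap. Python 3.11.15, pandas 2.3.3 and NumPy 2.4.6 were used. Members and gene lists were chosen with earlier results of these data known. Named genes were the 10 widest, 10 highest and 5 lowest domains, those at the limits, on a listed gene, several on a gene, beyond 50 kb, at the edges or over most genes; promoters, families and start shapes were added after values were seen. The other 37 samples were not analysed here. Values of some single genes are not reported here; the counts over lists include them.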

Additional observations from a re-analysis of the deposited data

How the results depend on the processing

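The values are shares of pooled lists, so no replicate could be left out and depth was not known. No paired analysis was possible because each list pools the samples of its time. Of 36 alternatives, 20 stayed near the main value (within its exact 95% binomial interval for shares and the median, within 1.5 times for counts). That binomial interval treats the domains as independent, which was not tested. Some of the 20 could not move. A −log10 q of at least 10 drops no domain, because the lowest value among domains was 20.6. Stricter overlap rules at ZT22 cannot lower a count of 0. Setting the width limit at 6000 bp gave 1461 domains, of which 83% touched a protein-coding gene and 40.8% held a 5′ end, with a median fold of 15.7 and 237 listed genes touched. A limit of 10000 bp gave 319 domains, of which 89.7% touched a gene, 55.8% held a 5′ end and 32.3% had the summit between 33.3% and 66.7% of the width. With all annotated genes, 71.9% of summits were inside a gene and 94.6% of domains touched one. Counting either gene end gave 58.1%, and asking for a 5′ end within 1000 bp of the summit gave 13.2%. The stretch from 25% to 75% of the width held 54.6% of summits. Without an upper fold limit 8 intervals had a ZT22 peak and the median fold was 17.3. Restricting the set to domains at the lowest local background, an alternative chosen after seeing the data, left 540 and moved none of the 5 values recomputed. The cause was not tested for any of these.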

Other observations

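No domain lay on chromosome X, where 298 ZT10 peaks were called (0 of 298, which allows a share of up to 1.01%), while the autosomes had between 1.60% and 3.20%. That limit treats peaks of 1 pooled list as independent, so it is no test of a difference between X and the autosomes. The widest X interval was 7407 bp, and the median fold of X peaks was 5.45, against 6.86 on the autosomes. On X, 29 peaks had a fold of 10 or more. The part of copy number, peak height or gene content in this was not tested.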
